A study of Mus musculus with 12 samples.

Results

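MH-S is a line of alveolar macrophages from the mouse. Clones of it that carry a label of high IL-4Ra activity were compared with clones labelled low, all after 16 h with lipopolysaccharide (LPS). The comparison was between 6 of the 12 arrays of the series: clones 69, 73 and 83 (high) against clones 7, 29 and 75 (low), 1 array per clone. The LPS was Salmonella Minnesota R595 LPS at 0.2 µg/ml, and the same 6 clones were also measured unstimulated, which gave 4 groups of 3 arrays. The fit behind the p-values took its estimate of spread from all 12 arrays. In it the LPS array and the unstimulated array of a clone entered as separate samples. No transgene, knockout or other agent is named for any group. Each value stands for 1 clone of 1 line, so the p-values measure the spread between these clones, and the sources used here do not give how IL-4Ra activity was measured. RNA was read on whole-transcript arrays, and of 41345 features the 29294 main ones with a symbol were used, which gave 27296 genes. Of these, 25221 lie outside chromosomes 14 and 15, 1111 on chromosome 14 and 964 on chromosome 15, and the genes of these chromosomes are described apart.

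LPS is a component of the outer membrane of Gram-negative bacteria. Macrophages sense it through TLR4, which switches on inflammatory genes through NF-kB and, by way of interferon beta and its receptor, the interferon-stimulated genes. These genes encode antiviral effectors, guanylate-binding and immunity-related GTPases that attack vacuoles holding microbes, chemokines that draw T cells, and the machinery that loads peptides onto MHC class I. IL-4Ra is a receptor chain used by both IL-4 and IL-13, cytokines that signal through STAT6 and drive the alternative activation of macrophages.

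Levels are log2 values after robust multi-array averaging (RMA), and their array medians lay between 4.42 and 4.46. Macrophage genes were bright in both groups, with Cd68, a lysosomal glycoprotein of macrophages, at 12.33 in high and 12.31 in low clones (means with LPS), and Adgre1, which encodes F4/80, at 11.23 and 11.37. Several defining genes of lung-resident alveolar macrophages were dim in both: Siglecf averaged 4.02 in high and 3.84 in low clones, Marco 4.06 and 3.88, and Car4 3.40 and 3.60. In a list of 30 measured genes of alveolar macrophage identity, 16 had a mean level under 5. The list held 1 higher call (Ctsk) and 1 lower call (Atp6v0d2), 6.67% against 0.575% of genes outside chromosomes 14 and 15. In 4 lists of markers of other cell types limma called 0 members, and at a background of 0.575% lists of this size may well hold 0 calls. A mean level under 5 was found for 19 of 20 markers of neutrophils and mast cells, 16 of 20 of lymphocytes, 21 of 24 of fibroblasts and epithelium, and 12 of 19 of monocytes and dendritic cells. Il4ra itself did not differ detectably, at 8.50, 8.29 and 7.86 in high clones and 8.34, 8.87 and 7.83 in low clones (difference −0.13 ± 0.29, SE; limma adjusted p = 0.927).

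Outside chromosomes 14 and 15 the genes that were lower in high clones included 5 of 39 listed interferon-stimulated genes, and the genes that were higher included Ctsk, Tyrobp, Csf3, Id3 and the histone genes H2bc4 and H2bc8. A gene was called at an adjusted p under 0.05 in limma, and 55 genes were higher (0.218% of those tested there) and 90 lower (0.357%). In each of these 145 genes (0.575%) the 3 high arrays did not overlap the 3 low arrays, against 13.6% of all genes outside the pair of chromosomes. The calls were made on the same arrays, so the lack of overlap in called genes follows largely from the choice and adds no support. A difference of at least 1 on the log2 scale, which is 2-fold, was reached by 18 of the higher and 30 of the lower genes. The array signal comes from whole cultures, so fewer cells with a transcript and less transcript per cell cannot be told apart. For 3 of the higher genes, Atp5g2, Atf1 and Rpl15, the feature lies on another chromosome but RefSeq places the gene on chromosome 14 or 15, so they may belong with the genes described at the end. A fit of the 6 LPS arrays alone called 18 genes higher and 38 lower, and 50 of the 145 genes were called in both fits.

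Among the lower genes, guanylate-binding proteins, immunity-related GTPases and TRIM30 copies stood near the top. The strings below are the 250 bases before an annotated start of 7 of the genes described next, 6 lower and 1 higher. They are given so that the upstream sequence can be set beside the levels.
Gbp5: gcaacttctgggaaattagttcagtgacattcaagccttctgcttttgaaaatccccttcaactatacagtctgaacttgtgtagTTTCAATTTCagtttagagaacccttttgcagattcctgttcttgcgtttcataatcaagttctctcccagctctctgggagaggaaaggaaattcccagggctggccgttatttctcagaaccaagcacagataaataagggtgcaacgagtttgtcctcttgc
Gbp2: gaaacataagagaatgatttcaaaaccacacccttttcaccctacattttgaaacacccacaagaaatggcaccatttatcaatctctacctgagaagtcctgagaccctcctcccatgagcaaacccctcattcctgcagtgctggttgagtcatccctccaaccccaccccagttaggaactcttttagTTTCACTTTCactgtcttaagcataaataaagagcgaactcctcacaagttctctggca
Ifit1bl1: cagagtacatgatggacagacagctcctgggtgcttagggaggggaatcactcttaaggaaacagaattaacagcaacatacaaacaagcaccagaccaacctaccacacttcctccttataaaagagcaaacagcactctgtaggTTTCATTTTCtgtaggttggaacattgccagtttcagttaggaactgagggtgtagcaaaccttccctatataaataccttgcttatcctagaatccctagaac
Trim30d: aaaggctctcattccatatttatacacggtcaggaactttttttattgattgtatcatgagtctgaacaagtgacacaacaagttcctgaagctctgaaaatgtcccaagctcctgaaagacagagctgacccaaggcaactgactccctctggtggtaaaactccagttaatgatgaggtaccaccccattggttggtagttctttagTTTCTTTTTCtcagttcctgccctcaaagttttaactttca
Trim30c: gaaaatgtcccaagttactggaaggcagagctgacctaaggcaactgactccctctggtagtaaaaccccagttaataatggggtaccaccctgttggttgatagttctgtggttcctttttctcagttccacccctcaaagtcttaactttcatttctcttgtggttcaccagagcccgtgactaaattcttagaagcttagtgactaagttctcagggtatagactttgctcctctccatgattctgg
AW112010: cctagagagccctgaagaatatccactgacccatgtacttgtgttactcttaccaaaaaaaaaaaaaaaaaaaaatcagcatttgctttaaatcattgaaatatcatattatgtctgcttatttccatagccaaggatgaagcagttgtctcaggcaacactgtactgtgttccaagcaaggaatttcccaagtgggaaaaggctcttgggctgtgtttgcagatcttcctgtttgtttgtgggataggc
Ctsk: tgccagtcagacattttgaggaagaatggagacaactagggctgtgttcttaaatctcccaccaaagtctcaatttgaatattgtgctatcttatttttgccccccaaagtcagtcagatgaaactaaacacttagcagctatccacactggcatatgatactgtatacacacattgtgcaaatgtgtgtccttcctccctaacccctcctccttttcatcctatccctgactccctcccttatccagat
The sequences are RefSeq's (GRCm38.p6), written 5′ to 3′ in the direction of transcription, and lie at chr3:142496684-142496933 on the plus strand for Gbp5, chr3:142620413-142620662 on the plus strand for Gbp2, chr19:34601969-34602218 on the minus strand for Ifit1bl1, chr7:104507850-104508099 on the minus strand for Trim30d, chr7:104400779-104401028 on the minus strand for Trim30c, chr19:11050567-11050816 on the minus strand for AW112010 and chr3:95498960-95499209 on the plus strand for Ctsk. Capitals mark matches to GAAANNGAAA on either strand, a pattern found in the response elements that interferon-activated factors bind. Ifit1bl1 has 2 annotated starts, and its string was chosen as the one with the most matches. The other genes shown have 1 start each. The matches start at base 86 of the Gbp5 string, base 192 for Gbp2, base 147 for Ifit1bl1 and base 210 for Trim30d, and the strings of Trim30c, AW112010 and Ctsk hold no match. RefSeq windows that also include 50 bases after the start were at hand for 63 of the 90 lower genes and 44 of the 55 higher genes. A gene with several windows was counted if any of them held the pattern. The pattern occurred in 13 of those 63 (20.6%) and in 1 of those 44 (2.27%), against 1079 of 27025 genes (3.99%). Of the 15 lower genes named for the size of their difference, with Gm, Rik, LOC, microRNA and snoRNA symbols skipped, 10 had a window. The pattern was held by 4 of the 10 (40%), all of them shown above. The 4 lower genes with a window that is not shown, Ifi209, Gdpd2, Olfr56 and Zfp11, hold no match. Nor do the windows at hand for 11 of the 15 higher genes named in the same way. A match is a description of these letters and was not tested as a binding site.

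AW112010 had the largest negative difference of the called genes (chromosome 19, 11047612 to 11050566, mm10). It is a transcript annotated as long non-coding that is known to be translated in activated macrophages. Its log2 level was 4.65, 3.63 and 3.78 in high clones 69, 73 and 83, against 7.02, 7.54 and 6.55 in low clones 7, 29 and 75. No high clone came within 1 unit of any low clone, and the difference was −3.02 ± 0.28 (SE), or 8.09-fold lower, with an adjusted p of 0.000353. Unstimulated, both groups were near the bottom of the scale, at 3.56, 3.12 and 3.32 in high and 3.74, 3.99 and 3.39 in low clones.

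Gbp5, Gbp2 and Gbp11 encode guanylate-binding proteins, which coat microbial vacuoles and promote inflammasome activation. Gbp5 (chromosome 3) stood at 6.12, 6.28 and 5.79 in high clones and at 8.56, 7.50 and 7.39 in low clones, a difference of −1.75 ± 0.26 (adjusted p = 0.00625). Gbp2, a neighbour on the same chromosome, had 9.38, 9.34 and 8.52 in high clones and 10.65, 10.13 and 10.64 in low clones (−1.39 ± 0.28, adjusted p = 0.0322). In both genes the groups were apart in every array with LPS, while the unstimulated differences were −0.20 and −0.16 with adjusted p of 0.879 and 0.923. Gbp11 (chromosome 5) was dimmer, at 4.08, 4.29 and 3.29 in high clones and 5.45, 5.69 and 6.23 in low clones (−1.90 ± 0.23, adjusted p = 0.00262). Guanylate-binding protein genes are related copies, and the array annotation marks the probes of these 3 as unique.

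Iigp1, an immunity-related GTPase that acts on parasite vacuoles (chromosome 18), had 4.82, 4.73 and 4.10 in high clones and 6.51, 6.23 and 6.52 in low clones. Its difference of −1.87 ± 0.16 passed with an adjusted p of 0.000241. Gm12250, known as Irgb10, a GTPase of the same family, was named after its values were seen because it is 1 of the 3 genes of the test of gaps below. It stood at 3.85, 3.68 and 3.49 in high clones and at 5.33, 5.59 and 6.06 in low clones. The feature named Olfr56 was also lower (−1.66 ± 0.24, adjusted p = 0.00596), but its span on chromosome 11 covers Ifi47, Tgtp1 and Tgtp2 in RefSeq, which encode GTPases of that family, and the signal cannot be assigned to the odorant receptor.

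The antiviral genes Mx1 and Ifit1bl1 followed. Mx1, a dynamin-like GTPase that blocks influenza viruses (chromosome 16), had 4.32, 4.33 and 3.63 in high clones and 7.11, 5.58 and 5.58 in low clones, with clone 7 the highest (−2.0 ± 0.34, adjusted p = 0.0131). Ifit1bl1, a member of the IFIT family of RNA-binding proteins, had 5.61, 5.86 and 5.46 in high clones and 7.73, 8.26 and 7.78 in low clones (−2.28 ± 0.24, adjusted p = 0.00105). The groups lay far apart in this gene relative to the spread within them. Trim30c and Trim30d, neighbouring copies in the TRIM30 cluster on chromosome 7, differed by −1.84 ± 0.15 and −2.18 ± 0.40 (adjusted p = 0.000215 and 0.0181), and Ifi209, a PYHIN family gene, by −1.70 ± 0.28 (adjusted p = 0.011). Trim30c held 3.98, 3.93 and 3.58 in high clones and 5.64, 5.64 and 5.72 in low clones, and unstimulated arrays of both groups read 2.99 to 3.61. The LPS arrays alone did not call Mx1, Trim30d or Ifi209 (adjusted p = 0.0746, 0.0756 and 0.054).

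Cxcl11, a ligand of the T cell chemokine receptor CXCR3, had the second largest negative difference (chromosome 5). Its levels were 7.51, 9.54 and 7.22 in high clones and 10.16, 10.40 and 10.73 in low clones, and clone 73 came closest to the low clones. The difference was −2.34 ± 0.47 (adjusted p = 0.0304; 0.102 in the LPS arrays alone). Unstimulated, the sign was the opposite, at 5.26, 6.32 and 5.90 in high and 4.62, 5.27 and 5.19 in low clones (0.80, adjusted p = 0.616). Of 23 chemokines measured, 3 were lower (13%, against 0.357% of genes outside the pair) and 0 higher. The other lower chemokines were Cxcl9, a further CXCR3 ligand (−0.66 ± 0.14), and Cxcl3, a neutrophil attractant that was dim in every array (−0.98 ± 0.18). Cxcl9 was dim too, with a mean of 4.38 over all arrays. With LPS it had 4.48, 4.58 and 4.07 in high and 4.93, 5.13 and 5.06 in low clones. The number of lower calls in the list was 0 without clone 7, 69, 75 or 83, and 1 without clone 29 or 73. In the LPS arrays alone Cxcl9 and Cxcl3 lost their calls as Cxcl11 did (adjusted p = 0.115 and 0.0571). The 1 lower call of the list in those arrays was a different chemokine. Ccl2, Ccl3, Ccl5 and Ccl7, which recruit monocytes and T cells, were bright in both groups and their differences of 0.13 to 0.22 did not pass (adjusted p 0.67 to 0.79).

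**Figure D1:**
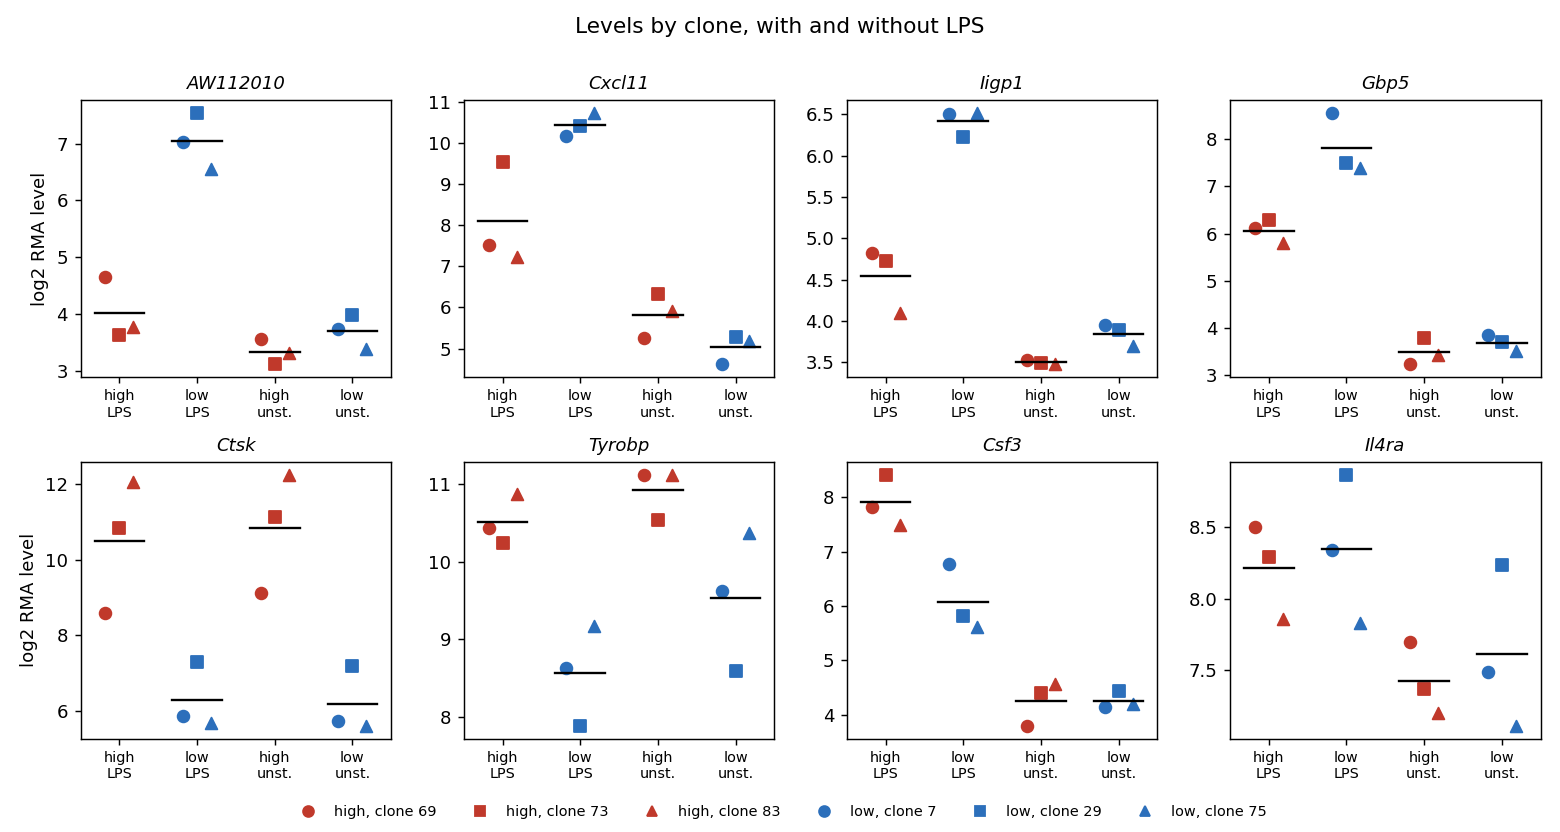
Log2 RMA levels (y axis) of 8 genes in every array, by group along the x axis (unst., unstimulated). Each point is 1 clone (marker) and each black line the mean of 3 clones. In AW112010, Cxcl11, Iigp1 and Gbp5 the high clones lie below the low clones with LPS, in Ctsk, Tyrobp and Csf3 above them, and in Il4ra the groups overlap.

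Other genes that were lower are best known for different functions. Atp6v0d2, a subunit of the vacuolar proton pump that is abundant in macrophages and osteoclasts, had 7.58, 8.80 and 8.73 in high clones and 10.50, 9.42 and 9.74 in low clones (−1.52 ± 0.33, adjusted p = 0.0446). Gdpd2, a membrane glycerophosphodiester phosphodiesterase, differed by −1.66 ± 0.17 with LPS (adjusted p = 0.000977) and by −0.92 unstimulated (adjusted p = 0.0238). Zfp11, a zinc finger gene, was dim throughout and differed by −1.57 ± 0.26 (adjusted p = 0.0116). Gstm1, a glutathione transferase, differed by −0.62 ± 0.12 (adjusted p = 0.0273). The LPS arrays alone did not call Atp6v0d2 or Gstm1 (adjusted p = 0.127 and 0.0818).

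A list of 39 measured interferon-stimulated genes held 5 lower calls (Mx1, Iigp1, Gbp5, Gbp2 and Isg20, an antiviral exonuclease) and 0 higher ones, 12.8% against a background of 0.357%. The differences of 37 of the 39 were below 0, with a median of −0.55, beside −0.01 over all genes outside chromosomes 14 and 15. In 25 members the 3 high arrays lay below the 3 low arrays, beside 8.13% of genes outside the pair. The mean log2 level of the list was 9.34, 9.42 and 8.85 in high clones and 10.03, 9.86 and 9.79 in low clones, so the groups did not overlap. Unstimulated, it was 8.15, 8.16 and 7.35 in high and 7.98, 7.58 and 7.62 in low clones, which overlap, and the median difference was 0.01. The number of lower calls was 3 in the LPS arrays alone and ran from 2 without clone 73 to 7 without clone 69. Without clones 7, 29 or 75 it was 3 each time. In the LPS arrays alone Iigp1 and Gbp5 kept their calls (adjusted p = 0.0151 and 0.0428). Mx1, Gbp2 and Isg20 lost theirs there (0.0746, 0.054 and 0.0762), and the remaining call was another member of the list.

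**Figure D2:**
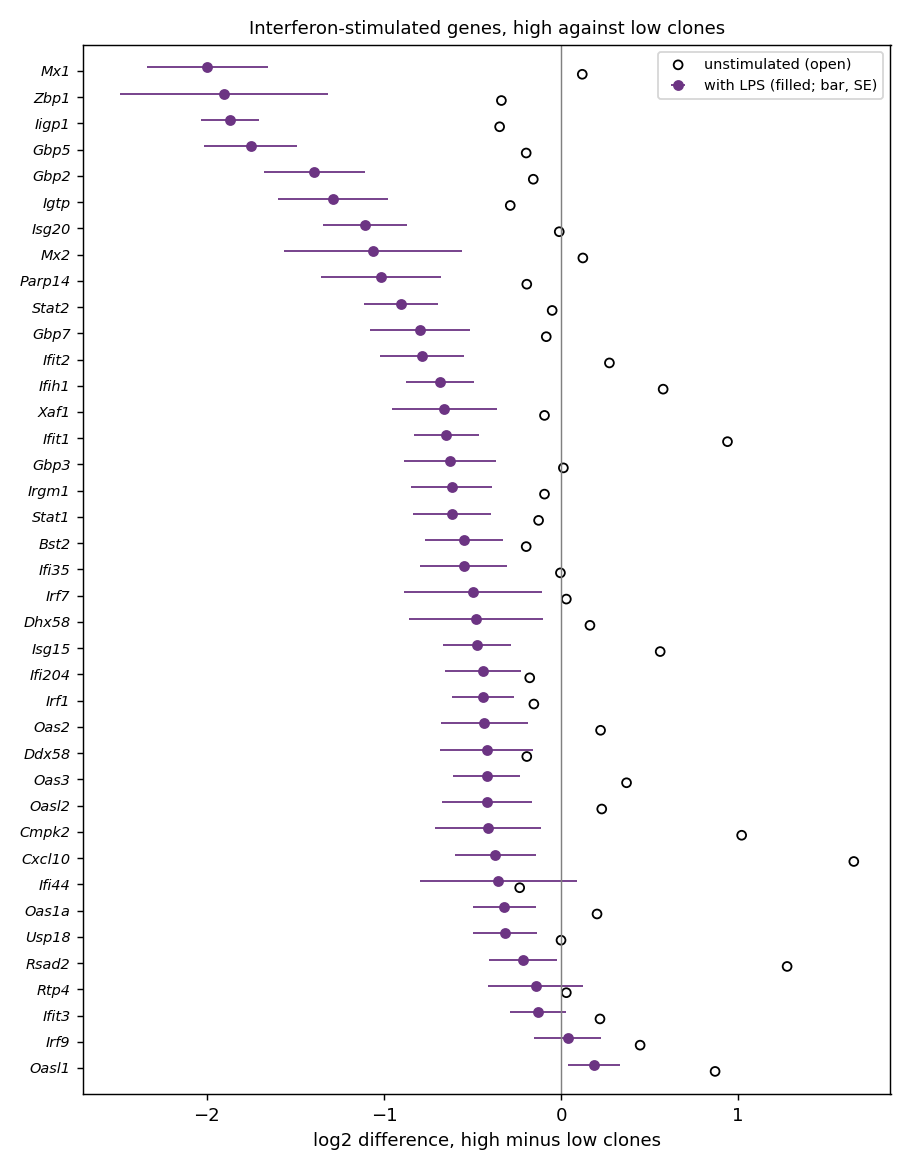
Difference between high and low clones (x axis, log2, high minus low) for each of 39 interferon-stimulated genes (y axis), with LPS (filled, bar is the SE) and unstimulated (open). With LPS, 37 of the 39 lie below 0, whereas unstimulated points lie on both sides.

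Genes of antigen presentation shared this direction in part. Of 20 measured, 3 were lower (15%, against 0.357%) and 0 higher, and the median difference was −0.34. The number of lower calls was 1 without clone 7, 29 or 73, 2 without clone 75 or 83 and in the LPS arrays alone, and 4 without clone 69, and 1 gene was higher without clone 7. Tap1, which pumps peptides into the endoplasmic reticulum for MHC class I, stood at 10.02, 9.59 and 9.13 in high clones and 10.79, 10.58 and 10.93 in low clones (−1.19 ± 0.25, adjusted p = 0.036; 0.0571 in the LPS arrays alone). Psmb10, a catalytic subunit of the immunoproteasome, differed by −0.81 ± 0.11 (adjusted p = 0.00415), with 10.30, 10.15 and 10.13 in high and 10.98, 10.99 and 11.03 in low clones. Cd274, which encodes the inhibitory ligand PD-L1, differed by −0.87 ± 0.15 (adjusted p = 0.015). B2m, the invariant chain of MHC class I, had a difference of 0.13 that did not pass, and Cd74, the class II invariant chain, one of 0.86 (adjusted p = 0.14).

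Among 26 inflammatory cytokines, 1 was higher and 1 lower (7.69%, against 0.575% of genes outside chromosomes 14 and 15). The higher call was lost without clone 29, 73 or 75, the lower one without clone 7, 29 or 75, and both in the LPS arrays alone. Csf3, which encodes the granulocyte growth factor G-CSF (chromosome 11, 98701263 to 98703629, mm10), had 7.82, 8.42 and 7.50 in high clones and 6.77, 5.81 and 5.62 in low clones (1.85 ± 0.30, adjusted p = 0.00985). Every high clone exceeded every low clone with LPS, whereas unstimulated levels were 3.79, 4.40 and 4.56 in high and 4.14, 4.44 and 4.19 in low clones (−0.01). Il15, a growth factor of NK cells and memory T cells, had 6.42, 6.30 and 5.66 in high clones and 7.48, 7.03 and 7.16 in low clones (−1.10 ± 0.23, adjusted p = 0.0392). Other LPS-induced cytokines did not pass: Tnf differed by −0.05 ± 0.11 (adjusted p = 0.922), Il1b by 0.19 ± 0.28 (0.877), Il1a by 0.08 ± 0.40 (0.97) and Il6 by −0.92 ± 0.59 (0.644). In Il6 clone 83 stood low, at 6.36 against 9.61 and 8.61 in the other high clones and 9.80, 8.46 and 9.08 in low clones. Nos2, the inducible nitric oxide synthase, differed by −0.54 ± 0.31 (0.594). Tnf was called higher in unstimulated high clones (0.66, adjusted p = 0.0166), and the difference of its gaps had an adjusted p of 0.67, or 0.22 with the clone as a block.

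No difference was detected in Tlr4, the LPS sensor. It differed by 0.17 ± 0.14 (adjusted p = 0.738). In the list of 25 Toll-like receptors and adaptors 1 gene was lower and 0 higher (4%, against 0.575% of genes outside chromosomes 14 and 15). That gene was Tlr3, the endosomal sensor of double-stranded RNA, at 9.16, 9.18 and 8.62 in high clones and 9.97, 10.04 and 10.21 in low clones (−1.09 ± 0.17, adjusted p = 0.00968), a call that was lost without clone 29 or 75. Without clone 69, 1 gene of the Toll-like receptor list was also higher. Of the differences of 28 NF-kB subunits and feedback genes 21 were below 0, and 0 genes were called, against 0.575% of genes outside chromosomes 14 and 15. Zfp36, which encodes an RNA-binding protein that destabilises cytokine transcripts, came nearest (−0.69 ± 0.15, adjusted p = 0.0508), and it was called lower with the clone as a random block (adjusted p = 0.0357). In this list 1 gene was lower without clone 69 or 75.

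Of 22 genes of IL-4 and IL-13 signalling, 0 were called with LPS, against 0.575% of genes outside chromosomes 14 and 15. At that share a list of this size may well hold 0 calls. Stat6 differed by 0.03 ± 0.12 (adjusted p = 0.959), with 9.68, 9.40 and 9.24 in high and 9.53, 9.33 and 9.36 in low clones. Il13ra1, the partner of IL-4Ra in the type II receptor, differed by −0.10 ± 0.14 (adjusted p = 0.863). Il2rg, the partner in the type I receptor, was 8.01, 7.37 and 10.31 in high clones and 7.43, 6.82 and 6.77 in low clones, with clone 83 far above the rest (1.56 ± 0.84, adjusted p = 0.557). Tyk2 and Irs2 differed by −0.51 ± 0.16 and −0.43 ± 0.15 without a call (adjusted p = 0.192 and 0.255). With LPS the high arrays lay below the low arrays in 4 of the 22 genes, these 2 among them, and above in 1, beside 13.6% of genes outside the pair. Unstimulated, 2 of the 22 were called lower and 0 higher, against 0.226% lower outside the pair. Irs2 was 1 of them (−0.79, adjusted p = 0.0227). Among 36 genes that IL-4 induces in macrophages, 1 was higher and 0 lower (2.78%, against 0.575% of genes outside chromosomes 14 and 15). That gene was Clec7a, which encodes Dectin-1, the receptor for fungal beta-glucan, at 7.47, 7.40 and 7.58 in high clones and 6.07, 6.74 and 6.59 in low clones (1.02 ± 0.22, adjusted p = 0.0404), a call that was lost without clone 7, 69, 73, 75 or 83. In this list 1 gene was lower without clone 69 and in the LPS arrays alone. Arg1, the arginase of alternatively activated macrophages, was near the bottom of the scale in every array, at 3.94 to 4.30 with LPS.

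Ctsk had the largest positive difference of the called genes (chromosome 3, 95499286 to 95509362, mm10). It encodes cathepsin K, a collagen-degrading lysosomal protease best known from osteoclasts. Its levels were 8.59, 10.84 and 12.06 in high clones and 5.88, 7.29 and 5.68 in low clones. The lowest high clone, 69, was above the highest low clone, 29, and the spread among high clones was wide. The difference was 4.21 ± 0.86 (adjusted p = 0.0329; 0.0614 in the LPS arrays alone), and it was 4.65 unstimulated (adjusted p = 0.0229). Of 33 lysosomal genes 1 was higher (Ctsk) and 1 lower (Atp6v0d2), which is 6.06% against 0.575% of genes outside chromosomes 14 and 15. The call of Ctsk was lost without any of clones 7, 29, 73, 75 or 83, and that of Atp6v0d2 without any of the 6 clones. The cathepsins Ctsb, Ctsd, Ctsl, Ctss and Ctsz differed by −0.14 to 0.27 without passing.

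Tyrobp, the adaptor DAP12 through which TREM2 and related receptors signal (chromosome 7), had 10.43, 10.24 and 10.87 in high clones and 8.63, 7.88 and 9.17 in low clones. The difference was 1.95 ± 0.39 (adjusted p = 0.0304), and it was 1.39 unstimulated (adjusted p = 0.143). Tyrobp was the 1 gene called of 23 that mark macrophages in general (4.35%, against 0.575% of genes outside chromosomes 14 and 15). Its call was lost without clone 7, 69, 73 or 83. Fcer1g, an adaptor of the same kind, differed by 0.14 and Trem2 by 0.29, and neither passed (adjusted p 0.76 and 0.57).

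Several regulators of transcription and of signalling were higher. Id3, an inhibitor of helix-loop-helix factors (chromosome 4), had 8.74, 8.16 and 8.31 in high clones and 6.43, 6.52 and 7.08 in low clones (1.73 ± 0.30, adjusted p = 0.015). Btg2, an antiproliferative factor, was higher by 1.28 ± 0.28 (adjusted p = 0.0469; 0.162 in the LPS arrays alone), and in clone 75 it stood at 4.58, below 5.92 and 5.98 in the other low clones. Smad9, a mediator of BMP signals, was higher by 1.26 ± 0.27, and Dgkg, a diacylglycerol kinase, by 1.10 ± 0.19. Egln3, an oxygen-sensing prolyl hydroxylase of the HIF pathway, had 10.28, 10.92 and 10.62 in high clones and 9.46, 9.74 and 9.53 in low clones (1.03 ± 0.21, adjusted p = 0.0294). Over 14 alternative runs, described at the end, Btg2 lost its call in 6 and Smad9 and Egln3 lost theirs in 5 each.

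The histone genes H2bc4 and H2bc8 of the cluster on chromosome 13 were also higher. H2bc4 had 8.69, 9.92 and 9.23 in high clones and 6.64, 7.93 and 6.86 in low clones (2.14 ± 0.38, adjusted p = 0.0148), and H2bc8 was higher by 1.50 ± 0.28. Both were called unstimulated too, by 2.52 and 1.87 (adjusted p = 0.0081 each). The LPS arrays alone called neither (adjusted p = 0.0542 and 0.0593). Replication-dependent histone genes are near-identical copies, and the array annotation marks the probes of these 2 as unique. Of 39 cell cycle genes 0 were called, against 0.575% of genes outside chromosomes 14 and 15, and the median difference was 0.02.

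Fpr1, the receptor for bacterial formyl peptides (chromosome 17), had 5.90, 4.61 and 4.96 in high clones and 4.21, 3.73 and 3.79 in low clones (1.25 ± 0.27, adjusted p = 0.0458), against an unstimulated difference of 0.02. Its call was lost with the clone as a random block (adjusted p = 0.0618) and in the LPS arrays alone (0.13). Plaur, the urokinase receptor, was higher by 0.83 ± 0.18 with LPS and by 0.85 unstimulated. Its adjusted p with LPS was 0.0469, and 0.0922 in the LPS arrays alone. The remaining named higher genes were Serinc2, Fam78a, Serpinb8, a serine protease inhibitor, and Cox6a2, a subunit of cytochrome c oxidase, with differences of 1.03 to 1.17. Of these, Serpinb8 was not called in the LPS arrays alone (adjusted p = 0.0582). The span of the Cox6a2 feature overlaps Itgad, which encodes an integrin chain.

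**Figure D3:**
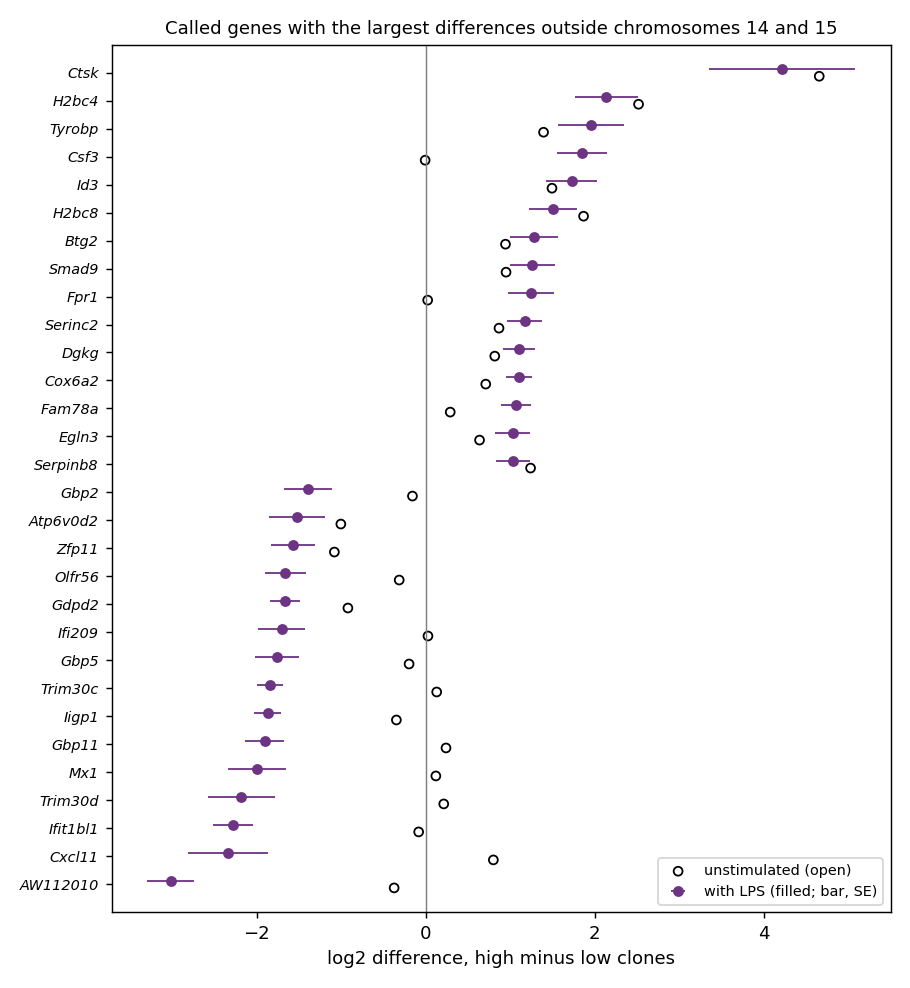
Difference between high and low clones (x axis, log2, high minus low) with LPS (filled, bar is the SE) and unstimulated (open). The genes (y axis) are called ones outside chromosomes 14 and 15. They are the 15 with the largest positive and the 15 with the largest negative difference among those named. Gm, Rik, LOC, microRNA and snoRNA symbols were skipped, so called genes such as LOC630751 (−2.28) and 4930438A08Rik (1.70) are not drawn. The open points span −0.01 to 4.65 over the 15 higher genes and −1.08 to 0.80 over the 15 lower ones.

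Cholesterol synthesis held 0 calls among 24 genes, against 0.575% of genes outside chromosomes 14 and 15. Of the 24 differences 21 were above 0, with a median of 0.20. The nearest to the threshold were Fdft1, squalene synthase, which lies on chromosome 14 (0.62 ± 0.15, adjusted p = 0.0763), and Cyp51, lanosterol demethylase (0.62 ± 0.15, adjusted p = 0.078). The matrix proteoglycan Dcn, a marker of fibroblasts, had 4.03, 3.49 and 3.49 in high clones and 6.20, 4.22 and 7.50 in low clones (−2.30 ± 0.55, adjusted p = 0.0659), and both groups read 3.23 to 3.54 unstimulated. The mean level of the list of fibroblast and epithelial markers was 4.22 to 4.31 in high and 4.30 to 4.48 in low clones. The part of other cells in the result for Dcn was not tested.

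The unstimulated arrays of the same clones show which of these differences were present at rest. Without LPS, 64 genes outside chromosomes 14 and 15 were higher in high clones (0.254%) and 57 lower (0.226%). The genes higher in both conditions numbered 23, which is 41.8% of those higher with LPS and 35.9% of those higher unstimulated. The genes lower in both numbered 11, or 12.2% of those lower with LPS and 19.3% of those lower unstimulated. The median unstimulated difference was 0.62 over the 55 higher genes, whose median with LPS was 0.83, and −0.23 over the 90 lower genes, whose median with LPS was −0.82. These genes were chosen on the LPS arrays, so a smaller median in the other arrays follows in part from the choice. No gene was called in opposite directions in the 2 conditions.

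The difference between the gaps, with LPS minus unstimulated, was tested for every gene. It passed for 3 (0.011%; 1290 at an unadjusted p under 0.05), and in each the high clones were lower with LPS but not at rest: LOC630751 (−2.42 ± 0.24), Gm12250 (−2.12 ± 0.23) and Trim30c (−1.97 ± 0.22), with adjusted p = 0.00573 each. LOC630751, a locus on chromosome 18, has probes that the annotation marks as able to bind other transcripts. Each clone gave 1 array in either condition, so the clone pairs the arrays, and with the clone as a fixed block 15 genes passed (0.055%), 14 with a more negative and 1 with a more positive gap under LPS. The 14 held these 3 together with AW112010, Cxcl11, Gbp11, Ifit1bl1, Ifit1bl2, Gm4951, Ifit1, Rsad2, Ifih1, Acod1 and Apol7b. Of the 15 genes 7 had a mean level under 5, beside 56.8% of genes outside chromosomes 14 and 15. With genes that dim left out 0 passed without the block. That filter removes the 3 genes that had passed, whose means were 3.77, 4.12 and 4.01, so the 0 is no separate check of them.

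Of the 15 genes, 9 were called lower and 1 higher with LPS, and 4 were called higher in unstimulated high clones. Acod1, which makes the antimicrobial metabolite itaconate and lies on chromosome 14, had 12.14, 12.15 and 12.10 in high and 12.08, 11.71 and 11.73 in low clones with LPS. Unstimulated it had 9.32, 9.30 and 9.86 in high and 7.30, 5.93 and 5.86 in low clones, a gap of 3.13 at rest against 0.29 with LPS (adjusted p with the block = 0.0242). Rsad2, which encodes the antiviral enzyme viperin, was higher by 1.28 in unstimulated high clones (adjusted p = 0.0081) and differed by −0.21 with LPS (adjusted p = 0.761). In the interferon list, Cxcl10, Rsad2, Ifit1 and Oasl1 were the 4 genes called higher in unstimulated high clones, and 0 of them were called with LPS. Cxcl10, the third CXCR3 ligand, differed by 1.65 at rest and by −0.37 with LPS, and its difference of gaps did not pass (adjusted p = 0.102; 0.0753 with the block).

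Chromosomes 14 and 15 carried most of the genes that were higher in high clones. Of 268 higher genes in all (0.982% of those tested), 79.5% lie on the pair, which holds 7.6% of the genes tested. On chromosome 14, 158 of 1111 genes were higher and 0 lower (14.2% called), and on chromosome 15, 55 of 964 were higher and 1 lower (5.81% called). The 6 LPS arrays alone called 52 higher genes on chromosome 14 and 19 on chromosome 15. Unstimulated, 132 genes of chromosome 14 were higher (11.9%), and 96 were higher in both conditions, which is 60.8% of those with LPS and 72.7% of those unstimulated. On chromosome 15 the unstimulated arrays called 55 higher (5.71%) and the shared genes numbered 36, or 65.5% of either list.

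The shift was broad and small. Over genes with a mean log2 level of at least 5, the median difference was 0.50 on chromosome 14 (1.41-fold, 426 genes) and 0.29 on chromosome 15 (1.22-fold, 472 genes), and on the 18 other chromosomes apart from Y it ran from −0.04 to 0.13, with Y at −0.17 over 3 genes. Of those 426 genes of chromosome 14, 93.2% had a difference above 0 and 68.1% had all 3 high arrays above all 3 low arrays. On chromosome 15 the shares were 88.1% and 59.1%, and the share of genes with high arrays above low arrays was 4.1% to 13.6% on the others, Y left out. Each clone showed it: the median deviation of these genes of chromosome 14 from their mean over the LPS arrays was 0.26, 0.23 and 0.23 in high clones 69, 73 and 83, against −0.16, −0.29 and −0.25 in low clones 7, 29 and 75. On chromosome 15 it was 0.17, 0.13 and 0.15 in high clones, and −0.13, −0.10 and −0.21 in low clones. At rest the median differences were 0.48 and 0.25. Copy number of these chromosomes was not measured here.

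**Figure D4:**
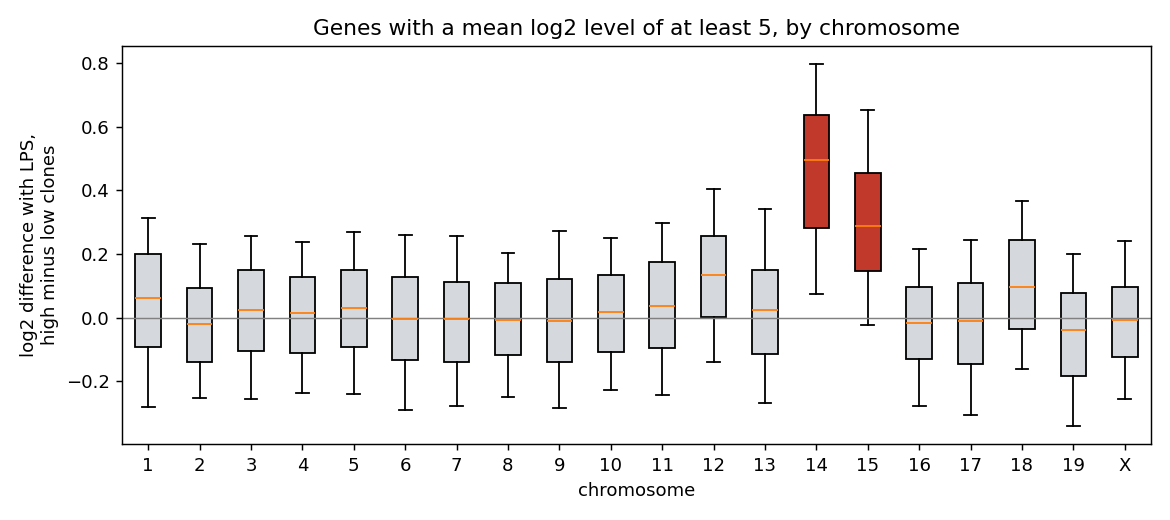
Differences between high and low clones with LPS (y axis, log2, high minus low) over genes with a mean log2 level of at least 5, by chromosome (x axis; Y, with 3 such genes, is not drawn). Boxes span the quartiles, lines in them the medians and whiskers the tenth to ninetieth percentiles. The boxes of chromosomes 14 and 15 (red) lie above 0, with medians of 0.50 and 0.29.

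Along chromosome 14 the median was 0.37 to 0.56 in each stretch of 10 Mb. Along chromosome 15 it was 0.20 to 0.32 in the stretches up to 100 Mb and 0.71 in the last, which held 47 of these genes and 31 of the 55 higher calls. The stretches were not tested against each other.

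Htr2a, the serotonin receptor 2A, had the largest difference on chromosome 14, at 5.65, 6.36 and 6.36 in high clones and 3.37, 3.09 and 3.19 in low clones (2.91 ± 0.25, adjusted p = 0.000241). At rest the difference was 2.64. The next 7 named genes there differed by 1.00 to 1.15: Ints6, Tspan14, Bin3, Spry2, an inhibitor of receptor tyrosine kinase signals, Ero1a, an oxidase of the endoplasmic reticulum, Scara3 and Kctd12. The microRNA genes Mir20a, Mir18 and Mir19a, neighbours in the Mir17 cluster, were also higher, by 1.15 ± 0.14, 1.05 ± 0.20 and 1.00 ± 0.21 (adjusted p = 0.00262, 0.0237 and 0.0334). They are outside the naming rule and were added after their values were seen, and the annotation marks their probes as able to bind other transcripts. On chromosome 15, Atg101, a subunit of the complex that starts autophagy, Pfdn5, a prefoldin subunit, Galnt6, Acvr1b, an activin receptor, Parvb, Slc4a8 and Letmd1 were higher by 0.86 to 1.08, as was Itga5, the integrin alpha 5 chain, by 0.77 ± 0.15. A4galt, which makes the glycolipid Gb3, was the 1 gene of the pair that was lower, at 4.89, 4.33 and 3.95 in high clones and 5.42, 5.72 and 5.51 in low clones (−1.16 ± 0.20, adjusted p = 0.0131). Its unstimulated difference was −0.25 (adjusted p = 0.749).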

How the data were processed

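RNA of 6 MH-S clones, each unstimulated and with LPS, was hybridised to Affymetrix Mouse Gene 2.1 ST arrays. The authors deposited log2 values computed by RMA (background correction, quantile normalization and median polish), per the file headers. The submitters' processing notes name Expression Console from Affymetrix, without a version. The deposited annotation is NetAffx build 34 on mm10. The files give no detection calls, so genes with a mean level under 5 are called dim.

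Of 33793 main features, 29294 carry a symbol. Identifiers of 25154 features matched RefSeq genes (GRCm38.p6), which updated 1885 symbols, and the brightest feature stood for each of the 1370 genes with more than 1. Sequences are from RefSeq.

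Limma 3.58.1 in R 4.3.3 fitted the 4 groups to all 12 arrays (lmFit and eBayes), and contrasts were taken between high and low clones with LPS, unstimulated, and between both gaps. P-values are two-sided and were adjusted by Benjamini-Hochberg over 27296 genes. Errors beside differences are standard errors. A permutation test of 3 against 3 clones cannot go below p = 0.1, so none was used. On simulated data of this size the LPS contrast recovered 80% of genes changed by 1 log2 unit and 25% of those changed by 0.5, and the test of gaps 56% and 2%. False calls numbered 1 for the LPS contrast and 4 for the test of gaps. The simulated arrays were independent, whereas the real ones are paired by clone, so these figures need not hold for the data, least of all for the test of gaps. The number of arrays limits the precision.

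The members, gene lists and the split by chromosome were chosen with earlier results of these data known. Genes were named by rule: the 15 called genes with the largest difference in each direction outside chromosomes 14 and 15, 8 on each of those, fixed cytokine and receptor genes, and the called members of each gene list (up to 3 others where none was called), skipping Gm, Rik, LOC, microRNA and snoRNA symbols. Genes taken for the size of their difference also had to have high and low LPS arrays that do not overlap, a condition that every called gene met. Arg1, Tlr4 and other genes without a call are given because the rule or a list holds them.

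The clone pairs unstimulated and LPS arrays by design. Deviations of a clone's arrays from their group means correlated at 0.1 (clone 75) to 0.415 (clone 83). High and low clones are different clones, so the clone entered their contrast as a random block (alternative) and the test of gaps as a fixed block. Batches and scan dates are not given in the labels.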

Additional observations from a re-analysis of the deposited data

Results flagged for a closer look

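In 3 genes the difference between high and low clones with LPS departed from that at rest by a test of the difference itself (limma, adjusted p = 0.00573 each). LOC630751 read 3.72, 3.16 and 3.21 in high clones and 5.53, 5.40 and 6.00 in low clones with LPS, against 3.08, 2.99 and 3.27 in high and 2.90, 2.94 and 3.09 in low clones unstimulated, a difference of gaps of −2.42. Gm12250 gave −2.12, and Trim30c −1.97. All 3 had a mean level under 5, and their probes read near the bottom of the scale in unstimulated arrays. With the clone as a block their adjusted p-values were 0.00835, 0.0345 and 0.00322.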

How the results depend on the processing

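The direction of each named gene that was called held under every alternative run, and the number of calls varied. The 6 LPS arrays alone called 18 genes higher and 38 lower outside chromosomes 14 and 15, 52 higher on chromosome 14, 19 higher and 0 lower on chromosome 15, and 3 interferon-stimulated genes lower. Requiring a log2 difference of at least 1 left 18 and 30 outside, 11 on chromosome 14 and 2 on chromosome 15. With dim genes left out, 92 genes of chromosome 15 were higher and 0 differences of gaps passed, a filter that itself removes the 3 that had passed. The medians of chromosomes 14 and 15 were then 0.50 and 0.29, against 0.14 and 0.13 over all their genes. Centring on the other chromosomes gave 0.16 for chromosome 15. With the clone as a replicate block, 1 difference of gaps was more positive and 14 more negative, and of 106 named genes Fpr1 lost its call between high and low clones (adjusted p = 0.0618) and Zfp36 gained one (0.0357). The calls of high against low clones by set stayed within 1.5 times of the reported counts under that block.

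Leaving out each clone in turn gave 17 (without clone 75) to 44 (without clone 69) genes higher and 31 (without clone 29) to 62 (without clone 69) lower outside, 39 (without clone 29) to 76 (without clone 75) higher and 0 to 2 lower on chromosome 14, 14 to 34 higher and 0 to 1 lower on chromosome 15, 0 to 5 more negative gaps, and 2 to 7 interferon-stimulated genes lower. The 106 named genes include many without a call. Of those with a call, 21 to 33 lost it without 1 clone, and 26 in the LPS arrays alone. Fewer arrays enter these fits. Genes without a call changed sign: Il4ra ran from −0.39 to 0.13 (0.05 without clone 83), Il13ra1 from −0.21 to 0.042, Stat6 from −0.087 to 0.13 (−0.005 without clone 29), Tnf from −0.12 to 0.062, Il1a from −0.31 to 0.53 (−0.295 without clone 29), Il1b from −0.0017 to 0.45 and Kdm5d from −0.3 to 0.01. The cause was not tested.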
